A study of Mus musculus with 9 samples.

Results

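The genes described here are 28 enzymes and regulators of cholesterol and fatty acid synthesis, taken by name from the pathway and measured by RNA-seq while mouse spermatogonial stem cells (SSCs) were induced to differentiate. They make up 28 of the 46078 gene identifiers counted in each library. 18 of them code for enzymes between acetyl-CoA and cholesterol, 6 for sterol regulatory element binding proteins (SREBPs), their regulators and a sterol carrier, and 4 for the synthesis and desaturation of fatty acids. All 28 passed the filter on low counts in each comparison, with 22 to 23248 reads per gene and library.

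The cells were EGFP-SSCs, a fluorescent SSC line labelled WT in genotype. At 0 h they were in normal culture on mouse embryonic fibroblasts that mitomycin C had stopped from dividing, in a serum-poor medium with GDNF, basic FGF and EGF. For 24 h or 48 h they were mixed with testicular somatic cells from busulfan-exposed mice of 3 to 7 days postpartum, in α-MEM with KSR, BMP-4/7, retinoic acid, activin A, testosterone, FSH and BPE, and EGFP-positive cells were then sorted by flow cytometry. Each group held 3 libraries labelled as biological replicates, all of 1 line. The labels state this sort for the 24 h and 48 h cells. The time, the medium and the feeder or somatic cells changed together between 0 h and the later groups, so their effects cannot be told apart.

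Cells build cholesterol from acetyl-CoA through mevalonate, farnesyl diphosphate, squalene and lanosterol. Transcription of these enzymes is driven by SREBPs, which SCAP escorts out of the endoplasmic reticulum when sterols are low and which INSIG proteins hold back when sterols are plentiful. SREBP-2 acts mainly on cholesterol genes and SREBP-1 mainly on fatty acid genes. In the testis, lanosterol demethylation also yields the meiosis-activating sterols, which accumulate there.

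The libraries held 16825251 to 22201892 counts. Levels are given in CPM, the counts scaled to the size of the library after TMM normalization, and CPM values are compared only within a gene. 310 to 401 CPM of 10 summed fibroblast, stromal and myoid marker genes were found at 0 h, against 2361 to 2654 at 24 h and 3124 to 3380 at 48 h. The 6 Leydig markers summed to 4.53 to 6.77 CPM at 0 h, 25.2 to 38.5 at 24 h and 25.6 to 31.9 at 48 h. The 7 Sertoli markers summed to 14.2 to 18.0 CPM at 0 h, 35.5 to 48.8 at 24 h and 43.2 to 45.3 at 48 h. Fshr, Rhox8, Cyp17a1, Insl3 and Lhcgr had 20 counts or fewer throughout. The 8 germ cell markers summed to 1272 to 2343 CPM at 0 h, 1760 to 1963 at 24 h and 1844 to 2040 at 48 h. 6 markers of undifferentiated spermatogonia summed to 1978 to 2384 CPM before co-culture and to 281 to 323 CPM after 48 h. 4 markers of differentiating spermatogonia summed to 337 to 386 CPM at 0 h, 1809 to 1864 at 24 h and 1053 to 1145 at 48 h. The 4 endothelial markers summed to 43.2 to 47.8 CPM at 0 h and 12.3 to 18.7 CPM later, and the 5 macrophage markers to 15.7 to 17.0 CPM and 5.38 to 9.65 CPM. Within a list the genes did not all move alike at 24 h by the edgeR test given below. Of 8 germ cell markers 3 were called higher and 1 lower, of 4 endothelial 1 and 2, and of 2 macrophage markers tested 1 and 1. Of those tested, 8 of 10 stromal, 2 of 4 differentiating, 4 of 5 Sertoli and 2 of 3 Leydig markers were called higher. 1 Sertoli and 5 of 6 undifferentiated markers were called lower. Of all genes tested, 11.4% were called higher and 14.2% lower. The part of these shifts in the changes below was not tested. In bulk RNA, fewer cells of a type and less RNA per cell cannot be told apart.

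Most of the sterol pathway fell within 24 h of co-culture and stayed low. At 24 h against 0 h, 19 of the 28 genes were called lower and 2 higher by edgeR's quasi-likelihood test at a Benjamini-Hochberg adjusted p of up to 0.05, while 14.2% of the 17592 genes tested were called lower and 11.4% higher. 15 of the 28 were called and at least 2-fold lower, against 7.64% of all genes tested. In 22 of the 28, every library at 24 h lay below every library at 0 h, which held for 21.6% of all genes tested. The median log2 fold change was -1.11 over the 28 genes and 0.01 over all genes tested. Summed over the 28 genes, the level was 5290, 5302 and 5845 CPM at 0 h, 3053, 2865 and 2841 CPM at 24 h and 2788, 3068 and 2906 CPM at 48 h.

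**Figure D1:**
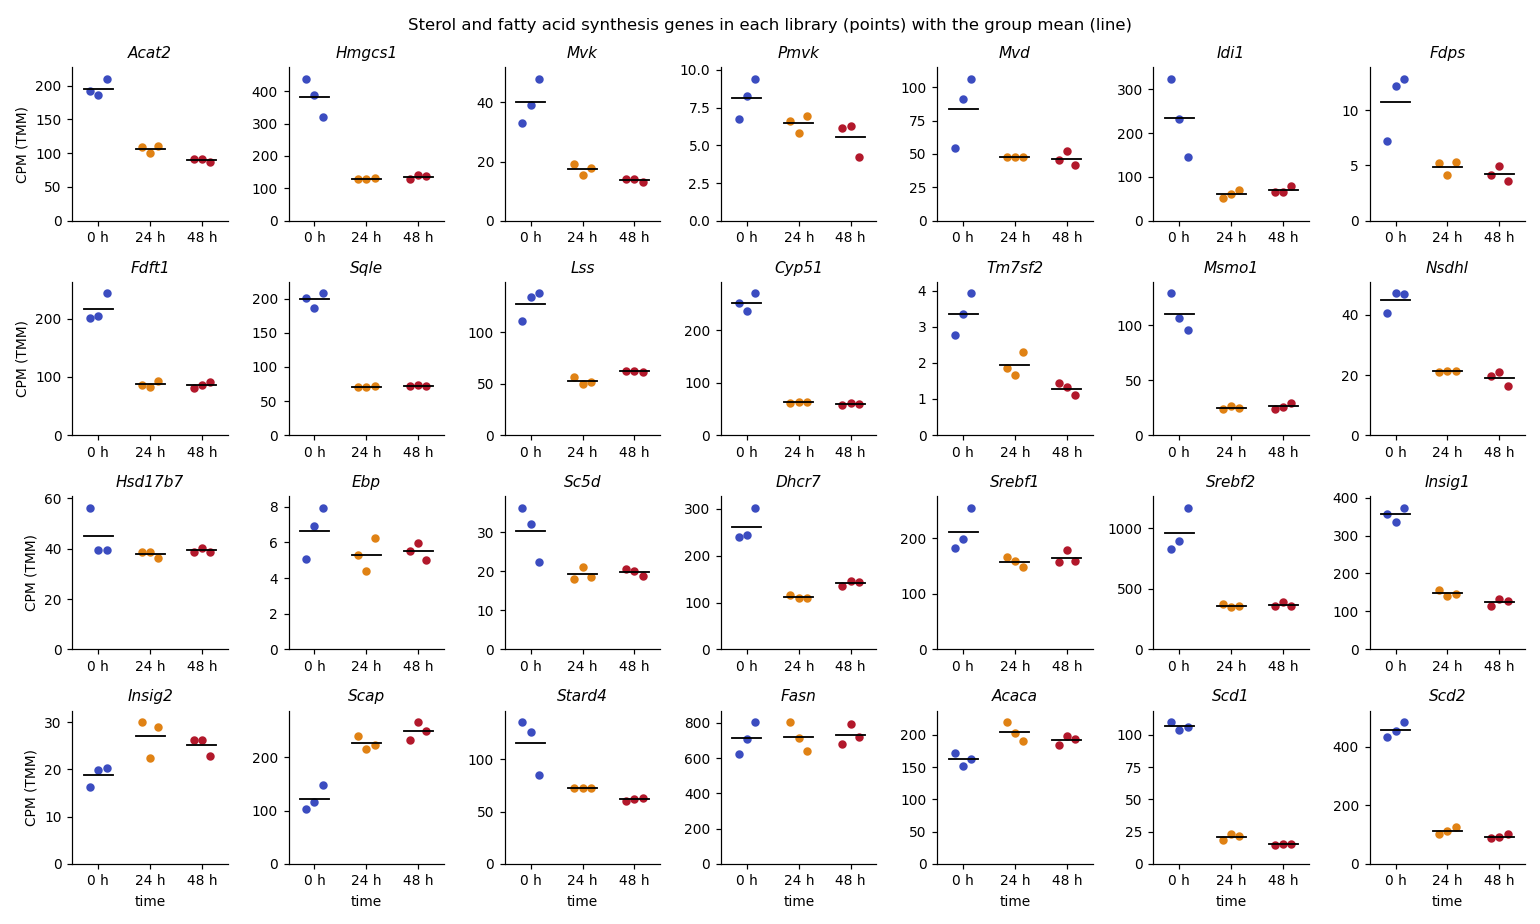
Level of each of the 28 genes in CPM (vertical axis, from 0) in the 3 libraries of each time (points, in replicate order) with the group mean (line). Most panels drop between 0 h and 24 h and stay level to 48 h, while Scap and Insig2 rise and Fasn stays between 623 and 806 CPM in every library.

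The mevalonate steps lead from acetyl-CoA to farnesyl diphosphate. Of their 7 genes, 6 were called lower at 24 h and 1, Pmvk, was not. Hmgcs1, the synthase that makes HMG-CoA, was at 438, 389 and 322 CPM at 0 h, 129, 129 and 131 CPM at 24 h and 127, 141 and 137 CPM at 48 h. All 6 co-culture libraries lay below the 3 libraries at 0 h. The log2 fold change was -1.56 ± 0.14 (SE) at 24 h, with an adjusted p of 0.000272 by edgeR. Idi1, the isomerase of isopentenyl diphosphate, fell most in this group. It was at 324, 232 and 145 CPM at 0 h, 51.4, 60.9 and 69.1 CPM at 24 h and 64.7, 64.8 and 78.3 CPM at 48 h, so the groups did not overlap although the 0 h libraries themselves differed by 2.23 times. Its log2 fold change was -1.96 ± 0.29 (SE) with an adjusted p of 0.00274 by edgeR. 30.3% of its windows match some other gene. 21% match Gm13502, a near-identical copy counted at 16.5 to 36.2 CPM at 0 h and 5.93 to 7.80 CPM at 24 h.

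Acat2, the cytosolic thiolase that opens the route, went from 191, 185 and 210 CPM at 0 h to 109, 100 and 111 CPM at 24 h, a log2 fold change of -0.87 ± 0.10 (SE). Mvk, mevalonate kinase, was at 33.1, 39.0 and 48.0 CPM at 0 h and at 19.3, 15.4 and 17.9 CPM at 24 h. Neither gene overlapped between the times, and both were called, with adjusted p of 0.000847 and 0.00179 by edgeR. 54.5% of the Acat2 windows match its neighbour Acat3, which was counted at 11.1 to 24.8 CPM at 0 h and 7.49 to 8.09 CPM at 24 h, so reads may have been divided between them. Pmvk, the kinase of the next step, was at 6.76, 8.31 and 9.41 CPM at 0 h against 6.64, 5.81 and 6.92 CPM at 24 h, which overlap. Its log2 fold change had a 95% interval of -0.75 to 0.08, which held 0.

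Mvd, the decarboxylase that yields isopentenyl diphosphate, was at 54.4, 90.8 and 106 CPM at 0 h and at 47.5, 47.6 and 47.6 CPM at 24 h. Fdps, farnesyl diphosphate synthase, was at 7.25, 12.2 and 12.8 CPM at 0 h and at 5.18, 4.11 and 5.31 CPM at 24 h. In both genes, 0 h replicate 1 lay closest to the 24 h libraries. Mvd was called lower (log2 fold change -0.81 ± 0.22 SE, adjusted p = 0.0321 by edgeR), and the adjusted p was 0.112 without 0 h replicate 2, and 0.111, 0.108 and 0.109 without 24 h replicates 1, 2 and 3. With library size as the only scaling it was 0.0518, and with replicate number as a block it was 0.064. Fdps was called lower (log2 fold change -1.14 ± 0.24 SE, adjusted p = 0.0129 by edgeR), with an adjusted p of 0.0561 without 0 h replicate 2, 0.0504 without 24 h replicate 1 and 0.0623 without 24 h replicate 2. 26.7% of the Fdps exon bases lie in exons of Gm43738 on the same strand, which was listed at 0 to 0.148 CPM, so reads of Fdps may have been left out of its count.

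The 3 enzymes from farnesyl diphosphate to the first sterol ring were all called lower at 24 h. Fdft1, squalene synthase, was at 202, 204 and 244 CPM at 0 h and 86.0, 82.4 and 93.2 CPM at 24 h. Sqle, the squalene epoxidase that limits the rate of the late pathway, was at 202, 187 and 208 CPM at 0 h and 70.6, 70.6 and 72.0 CPM at 24 h. Lss, lanosterol synthase, was at 110, 134 and 138 CPM at 0 h and 56.9, 49.4 and 52.0 CPM at 24 h. The 0 h libraries were above all co-culture libraries for each of the 3 genes, including those at 48 h. The log2 fold changes at 24 h were -1.31 ± 0.11, -1.49 ± 0.10 and -1.27 ± 0.12 (SE), with adjusted p of 0.000233, 7e-05 and 0.000344 by edgeR. 42.8% of the Fdft1 windows match some other gene, and 23.4% match Gm6781, a near-identical copy at 0 to 0.882 CPM. 18.3% of the Fdft1 exon bases lie opposite exons of Ctsb. The level of Fdft1 is thus uncertain where strand or repeated hits were not resolved.

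Of the 8 enzymes from lanosterol to cholesterol, 5 were called lower at 24 h and 6 at 48 h. Cyp51, the lanosterol demethylase, was at 252, 236 and 271 CPM at 0 h, 62.0, 62.8 and 62.3 CPM at 24 h and 57.4, 61.4 and 58.4 CPM at 48 h. Msmo1, the methylsterol oxidase that removes the next methyl groups, was at 129, 106 and 95.5 CPM at 0 h, 23.3, 26.8 and 24.4 CPM at 24 h and 23.5, 25.6 and 29.1 CPM at 48 h. These demethylating enzymes had the largest falls among the 18 cholesterol enzymes, 4.06-fold and 4.44-fold between group means at 24 h. Their log2 fold changes were -2.02 ± 0.10 and -2.15 ± 0.16 (SE), with adjusted p of 2.63e-05 and 0.000105 by edgeR.

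Nsdhl, the dehydrogenase that completes demethylation with Msmo1, was at 40.6, 47.3 and 46.9 CPM at 0 h and 21, 21.3 and 21.2 CPM at 24 h. Dhcr7, the reductase that makes cholesterol in the last step of its branch, was at 239, 245 and 303 CPM at 0 h and 117, 110 and 111 CPM at 24 h. Their levels did not overlap between the times. The log2 fold changes were -1.08 ± 0.11 and -1.22 ± 0.12 (SE), with adjusted p of 0.000462 and 0.000366 by edgeR.

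Of the remaining 4 genes of this stretch, 1 was called lower at 24 h and 2 at 48 h. Sc5d, a sterol desaturase, was at 36.3, 32.1 and 22.3 CPM at 0 h and 18.1, 21 and 18.6 CPM at 24 h. Its call was marginal, with a log2 fold change of -0.65 ± 0.20 (SE) and an adjusted p of 0.0488 by edgeR. It was lost without any 1 of 0 h replicates 1 and 2 and 24 h replicates 1, 2 and 3, where the adjusted p was 0.0798, 0.125, 0.165, 0.105 and 0.155. It was also lost with library size alone (0.0896), at least 10 counts required in every library (0.0704) or a replicate block (0.0858). Tm7sf2, a sterol reductase, had 22 to 78 counts per library, at 2.77, 3.36 and 3.93 CPM at 0 h against 1.86, 1.65 and 2.29 CPM at 24 h. It did not overlap but missed the threshold at 24 h (adjusted p = 0.055 by edgeR), and was called without 0 h replicate 1 (0.0379), with DESeq2 (0.0489), with offsets for GC content and length (0.047) and with all 9 libraries in 1 fit (0.0258). At 48 h it was lower, with a log2 fold change of -1.37 ± 0.25 (SE) and an adjusted p of 0.00552 by edgeR. 12.1% of its exon bases are shared on the same strand with Vps51, which was at 41.7 to 90.7 CPM.

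Hsd17b7, a keto-sterol reductase, was at 56.4, 39.6 and 39.4 CPM at 0 h and 38.7, 38.8 and 36.2 CPM at 24 h, so that 0 h replicate 1 stood apart from the other 8 libraries. Ebp, the sterol isomerase, was at 5.04, 6.92 and 7.95 CPM at 0 h and 5.28, 4.37 and 6.24 CPM at 24 h. Neither was called, and the 95% intervals of their log2 fold changes, -0.66 to 0.15 and -0.86 to 0.21, both held 0.

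**Figure D2:**
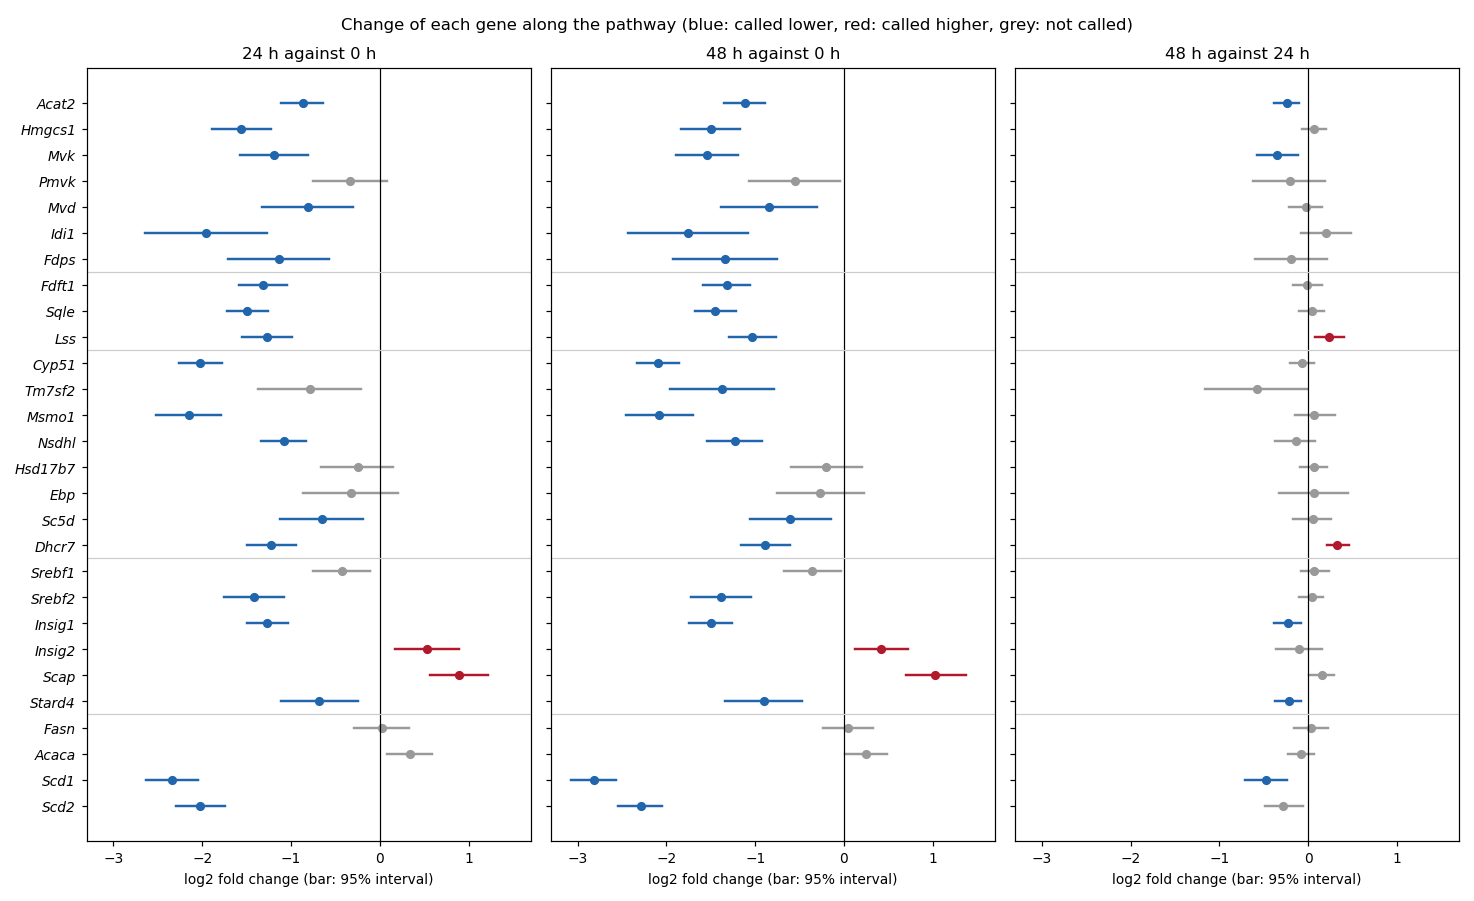
Log2 fold change (horizontal axis) with its 95% interval for each of the 28 genes in pathway order, from the mevalonate steps at the top to fatty acid synthesis at the bottom, in the 3 comparisons. 19 genes are called lower at 24 h and 20 at 48 h against 0 h, and 5 lower and 2 higher at 48 h against 24 h.

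The regulators did not move together. Srebf2, the gene of the SREBP that drives the sterol enzymes, was at 828, 891 and 1170 CPM at 0 h, 377, 348 and 354 CPM at 24 h and 358, 389 and 354 CPM at 48 h. Srebf1 was at 182, 198 and 255 CPM at 0 h, 165, 158 and 148 CPM at 24 h and 156, 179 and 159 CPM at 48 h. For both genes each 0 h library was above each co-culture library, and the distance was far larger for Srebf2. Srebf2 was called, with a log2 fold change of -1.42 ± 0.14 (SE) and an adjusted p of 0.000469 by edgeR. Srebf1 was not, with -0.43 ± 0.14 (SE) and 0.0576, and its adjusted p was 0.0209 at 24 h and 0.0334 at 48 h without 0 h replicate 1. At 24 h Srebf1 was also called with DESeq2 (0.0396) and with offsets for GC content and length (0.0109), and with all 9 libraries in 1 fit it was called at both times (0.0182 and 0.0392). The difference between the changes of the genes was not tested.

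Insig1, which retains the SCAP and SREBP complex and is itself a target of SREBPs, was at 357, 336 and 374 CPM at 0 h, 157, 141 and 146 CPM at 24 h and 115, 132 and 129 CPM at 48 h. Insig2, its paralog with the same role, went the other way, from 16.4, 19.9 and 20.4 CPM at 0 h to 30.1, 22.5 and 29.0 CPM at 24 h and 26.2, 26.3 and 23.0 CPM at 48 h. The levels of neither gene overlapped between 0 h and the later times. The log2 fold change at 24 h was -1.27 ± 0.10 (SE) for Insig1 and 0.53 ± 0.15 (SE) for Insig2, with adjusted p of 0.000156 and 0.0418 by edgeR. The call of Insig2 at 24 h was lost without 0 h replicate 1 or 2 or 24 h replicate 1 or 3 (adjusted p of 0.0672, 0.113, 0.164 and 0.144). At 48 h it was lost without 0 h replicate 1 or 2 or any 48 h replicate (0.065, 0.0925, 0.157, 0.141 and 0.0777). With no expression filter it was lost at both times (0.0607 and 0.105), as with a replicate block (0.107 and 0.12).

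Scap, the escort of SREBPs and their sensor of sterols, was at 103, 117 and 148 CPM at 0 h, 241, 216 and 223 CPM at 24 h and 233, 267 and 249 CPM at 48 h. Every co-culture library exceeded every 0 h library. The mean of the group rose 1.85-fold to 24 h and 2.04-fold to 48 h, with log2 fold changes of 0.89 ± 0.14 and 1.03 ± 0.14 (SE) and adjusted p of 0.00355 and 0.00162 by edgeR. 13.2% of its exon bases lie opposite 5830462I19Rik, which stayed between 0.450 and 0.971 CPM. Stard4, a cytosolic carrier of cholesterol, was at 136, 126 and 85.0 CPM at 0 h, 72.0, 72.7 and 72.5 CPM at 24 h and 60.5, 61.7 and 63.0 CPM at 48 h. It was called lower (log2 fold change -0.68 ± 0.18 SE, adjusted p = 0.0328 by edgeR), and the adjusted p rose to 0.0952 without 0 h replicate 2 and to 0.114, 0.110 and 0.109 without 24 h replicates 1, 2 and 3. With library size as the only scaling it was 0.0612, and with a replicate block it was 0.0667.

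Since SREBPs bind with the factors NF-Y and Sp1, stretches just upstream of 4 of these genes are shown: Hmgcs1 and Mvk, which fell, Fasn, which was not called, and Scap, which rose. Each is 150 bases from RefSeq (GRCm38.p6), read 5′ to 3′ on the strand of the gene and ending at the base before its RefSeq start. None overlaps an exon of GENCODE M21. Capitals mark CCAAT, the NF-Y box, on either strand (ATTGG on the other), and in Hmgcs1 also TCACNCCAC, the core of the sterol regulatory element. In Fasn a pair of CCAAT matches on opposite strands overlap.
Hmgcs1, chr13:119690201-119690350, plus strand: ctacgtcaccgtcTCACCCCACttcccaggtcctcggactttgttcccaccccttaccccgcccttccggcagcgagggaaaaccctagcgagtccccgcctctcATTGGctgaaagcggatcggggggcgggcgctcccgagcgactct
Mvk, chr5:114444119-114444268, plus strand: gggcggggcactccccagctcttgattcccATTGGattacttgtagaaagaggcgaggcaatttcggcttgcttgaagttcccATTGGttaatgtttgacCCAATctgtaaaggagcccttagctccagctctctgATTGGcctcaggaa
Fasn, chr11:120824548-120824697, minus strand: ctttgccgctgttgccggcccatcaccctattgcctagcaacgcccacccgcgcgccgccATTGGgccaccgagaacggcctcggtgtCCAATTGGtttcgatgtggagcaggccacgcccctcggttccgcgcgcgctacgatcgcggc
Scap, chr9:110333138-110333287, plus strand: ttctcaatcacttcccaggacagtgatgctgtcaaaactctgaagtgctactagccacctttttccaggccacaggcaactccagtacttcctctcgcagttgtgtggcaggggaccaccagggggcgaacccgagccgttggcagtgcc

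The letters were searched on both strands of windows from 250 bases before to 50 after each RefSeq start, which the table held for 22 of the 28 genes. Fdps, Fdft1, Sqle, Stard4, Scd1 and Scd2 had no entry. CCAAT was present for 19 of the 22 genes, against 43.0% of the 12007 genes with a window that were tested at 24 h and 41.1% of all 27025 genes with a window. The 3 without it were Acaca, Acat2 and Scap. Acat2 was called lower at 24 h, while Insig2, called higher like Scap, held 3 CCAAT matches in 1 window. The GC box, GGGCGG, was present for 19 of the 22, against 66.5% of the tested genes and 38.2% of all genes. TCACNCCAC was present for Hmgcs1 alone (1.44% of all genes), its shorter form CACNCCAC for Acat2, Hmgcs1 and Insig1 (7.12%, and 7.89% of the tested genes), and the E-box CACGTG for 5 of the 22 (8.09%, and 11.6% of the tested genes). TCACNCCAC contains CACNCCAC, so its match counts under both. These matches are descriptions of letters, and genes with several starts had several windows in which to hold them.

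The 4 fatty acid genes split between synthesis and desaturation. Fasn, the fatty acid synthase, was at 623, 707 and 806 CPM at 0 h, 804, 714 and 642 CPM at 24 h and 683, 791 and 718 CPM at 48 h. Acaca, the carboxylase that supplies malonyl-CoA to it, was at 172, 151 and 163 CPM at 0 h and 220, 204 and 191 CPM at 24 h. Fasn overlapped in full, and the 95% interval of its log2 fold change, -0.29 to 0.33 at 24 h, bounded a change to less than the median fall of the 28 genes. Acaca lay higher in each 24 h library but was not called, with a log2 fold change of 0.34 ± 0.11 (SE) and an adjusted p of 0.0607 by edgeR. It passed at 0.0279 without 0 h replicate 1 and at 0.0421 without 0 h replicate 3, and at 48 h at 0.0415 without 0 h replicate 1. Acaca was also called higher at 24 h with library size alone (0.0217), DESeq2 (0.0413), at least 10 counts in every library (0.0335), offsets for GC content and length (0.0163) and all 9 libraries in 1 fit (0.0165), and at 48 h with library size alone (0.0288) and all 9 libraries (0.0426). 61.6% of the windows of Acaca match Gm5182, a near-identical copy that is not among the identifiers counted. Reads of Acaca that also match this copy may have been left out of its count.

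Scd1 and Scd2, neighbouring genes on chromosome 19 (GRCm38 chr19:44394455-44407879 and chr19:44293674-44306864), code for the desaturases that turn saturated into monounsaturated fatty acids. Scd1 was at 110, 104 and 106 CPM at 0 h, 18.7, 22.8 and 21.6 CPM at 24 h and 14.7, 15 and 15.5 CPM at 48 h. Scd2 was at 433, 454 and 485 CPM at 0 h, 99.9, 114 and 126 CPM at 24 h and 86.8, 91.5 and 100 CPM at 48 h. Both were far below every 0 h library at each later time. The fall of Scd1 was the largest of the 28 genes, 5.07-fold at 24 h and 7.09-fold at 48 h between group means. The log2 fold changes at 24 h were -2.34 ± 0.12 and -2.02 ± 0.12 (SE), with adjusted p of 3.03e-05 and 4.55e-05 by edgeR. 6.81% of the Scd1 windows match Scd2 at 97% identity or more.

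At 48 h against 0 h, which shares its 0 h libraries with the comparison at 24 h, 20 of the 28 genes were called lower and 2 higher, while 18.5% of the 17755 genes tested were called lower and 13.0% higher. 16 of the 28 were called and at least 2-fold lower (10.0% of all genes), and 22 had every 48 h library below every 0 h library (25.1% of all genes). The median log2 fold change was -1.18 over the 28 genes and 0.02 over all genes. Cyp51 and Msmo1 were at -2.09 ± 0.10 and -2.08 ± 0.16 (SE), Scd1 at -2.82 ± 0.11, Hmgcs1 at -1.50 ± 0.14 and Srebf2 at -1.38 ± 0.14, with adjusted p of 1.71e-05, 0.000118, 8.48e-06, 0.000291 and 0.000431 by edgeR. The 6 genes not called were Pmvk, Hsd17b7, Ebp, Srebf1, Fasn and Acaca, of which Pmvk was called with all 9 libraries in 1 fit (0.0475) and Hsd17b7 with offsets for GC content and length (0.0417). The call of Sc5d at 48 h (adjusted p = 0.0493 by edgeR) was lost without 0 h replicate 1 or 2 or any 48 h replicate (0.0769, 0.139, 0.128, 0.131 and 0.157), with library size alone (0.0946) and with at least 10 counts in every library (0.0572). That of Mvd (0.0292) was lost without 0 h replicate 2 or 3 or any 48 h replicate (0.0971, 0.0541, 0.104, 0.0668 and 0.113). With a replicate block both calls were lost (0.0667 for Sc5d and 0.0531 for Mvd).

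Between 24 h and 48 h the genes moved little. 5 of the 28 were called lower and 2 higher, while 12.7% of the 17499 genes tested were called lower and 8.61% higher, so these shares were near those of all genes. The median log2 fold change was -0.02 over the 28 genes, and no gene changed by as much as 2-fold. Scd1 was lower again in each 48 h library (log2 fold change -0.48 ± 0.10 SE, adjusted p = 0.012 by edgeR), with an adjusted p of 0.053 without 48 h replicate 1. Dhcr7 was higher, at 135, 146 and 143 CPM against 117, 110 and 111 CPM (0.33 ± 0.06 SE, adjusted p = 0.00415 by edgeR), and kept its call without any single library but not with all 9 libraries in 1 fit (0.0687). Lss, at 62.3, 62.0 and 61.3 CPM at 48 h, was also higher than at 24 h (0.24 ± 0.07 SE, adjusted p = 0.0417). Acat2, Mvk, Insig1 and Stard4 were called lower with log2 fold changes of -0.24, -0.35, -0.23 and -0.22. Each of these 5 calls was lost when certain libraries were left out 1 at a time. This held for Acat2 without replicate 1 or 3 of either time (adjusted p of up to 0.107 by edgeR) and for Mvk without any library but 24 h replicate 2 (up to 0.143). It held for Lss and Insig1 without any library but 48 h replicate 2 (up to 0.129 and 0.209), and for Stard4 without any of the 6 (up to 0.15). All 5 calls were also lost with a replicate block (up to 0.0877) and with all 9 libraries in 1 fit (up to 0.494). Mvk, Insig1 and Stard4 were not called with DESeq2 (0.0754, 0.0503 and 0.0703). Mvk and Lss were not called with offsets for GC content and length (0.283 and 0.0678). Of the 7 genes called, only Scd1 kept its call in every setting that used all libraries. Scd2 was not called (adjusted p = 0.0705 by edgeR). It was called without 24 h replicate 1 (0.0312), with library size alone (0.0495) and with no expression filter (0.0153). With offsets for GC content and length, Srebf1, Srebf2 and Scap were called higher (log2 fold changes of 0.28, 0.22 and 0.36). Acaca was called lower with these offsets (-0.17).

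Levels between genes were compared per exon length, as FPKM computed from the counts. At 0 h, Srebf2 had the highest FPKM, 134 ± 25.4 (SD, n = 3), followed by Insig1 at 115 ± 6.12, Scd2 at 83.7 ± 4.74, Hmgcs1 at 83.3 ± 12.8 and Acat2 at 76.9 ± 5.05. Srebf2 and Insig1 were within their spread of each other, as were the next 3 genes. At 48 h Fasn came first with 66.7 ± 5.05 FPKM, without having been called in either comparison, followed by Srebf2 at 51.1 ± 2.64, Insig1 at 40.5 ± 2.85 and Acat2 at 35.3 ± 0.941. Scap rose from position 17 of 28 at 0 h to position 5, with 33.6 ± 2.25 FPKM at 48 h. The order depends on the length used. With the longest transcript in place of the union of exons, Fasn and Srebf2 were at 72.7 and 72.3 FPKM at 48 h, Scap was at position 3 with 59.1, Dhcr7 went from position 9 to 4 with 50.2 and Acat2 from 4 to 6. The lowest in each group were Tm7sf2, at 0.761 ± 0.132 FPKM at 0 h and 0.292 at 48 h, and Fdps, at 2.56 FPKM at 0 h and 1.01 FPKM at 48 h. Both share exon bases with another gene on the same strand (12.1% with Vps51 and 26.7% with Gm43738). Reads may have been left out of their counts, so their low positions are uncertain. Among the demethylating enzymes, levels at 0 h ran from 57.4 FPKM for Cyp51 to 17.9 for Msmo1 and 15.7 for Nsdhl, and at 24 h they were 14.1, 4.04 and 7.43. With the longest transcript as length, Msmo1 came to 37.1 FPKM at 0 h and 8.37 at 24 h and Nsdhl to 20.7 and 9.77.

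**Figure D3:**
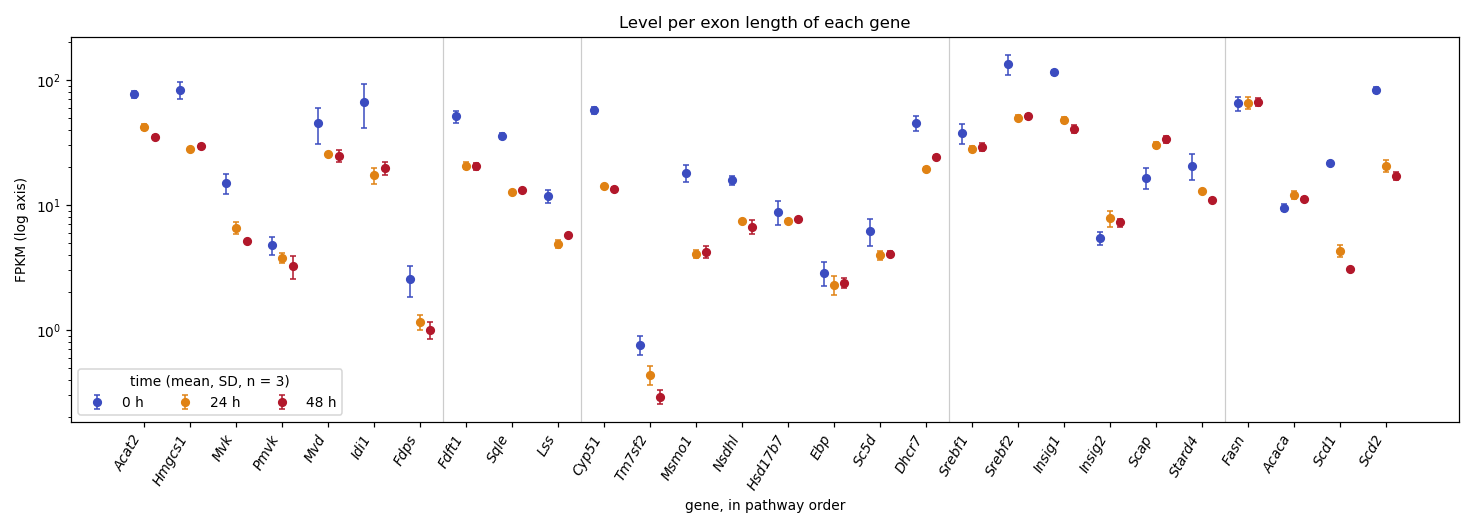
Level per exon length (FPKM, log axis) of each gene in pathway order at 0 h, 24 h and 48 h (points: means, bars: SD, n = 3). Grey lines separate the 5 roles. Fasn stays near 66 FPKM while most enzymes drop, and Scap and Insig2 rise.

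The 0 h libraries varied more than the later ones. Over the 28 genes the median coefficient of variation was 15.4% at 0 h, 6.70% at 24 h and 6.51% at 48 h. In 6 genes the highest 0 h library exceeded the lowest by over 1.5 times, namely Mvd, Idi1, Fdps, Ebp, Sc5d and Stard4, and in none at 24 h or 48 h. With offsets for GC content and length, 21 of the 28 genes were called lower in each comparison with 0 h. That setting also called more of all genes lower, 3155 of 17508 at 24 h and 3880 of 17660 at 48 h. The main fit called 2492 of 17592 and 3292 of 17755. The log2 fold changes at 24 h with these offsets came to -1.93 for Idi1, -0.76 for Mvd, -0.69 for Sc5d and -0.70 for Stard4, all called. At 24 h the calls of Mvd, Sc5d and Stard4 were lost with library size alone or with a replicate block.

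Genes of 5 neighbouring lipid pathways were counted in the same fits. In these, 14.2% of all genes tested were called lower and 11.4% higher at 24 h, and 18.5% and 13.0% at 48 h. At 48 h against 24 h the shares were 12.7% and 8.61%. In the list of fatty acid supply, elongation and desaturation, 18 of 20 genes were tested, of which 10 were called lower and 2 higher at 24 h. By 48 h there were 11 lower and 1 higher. The list's median log2 fold change was -0.46 and then -0.67. Acacb, the mitochondrial isoform of acetyl-CoA carboxylase, was at 114, 114 and 127 CPM at 0 h, 40.5, 33.6 and 33.4 CPM at 24 h and 20.3, 22.9 and 17.6 CPM at 48 h. It fell at each step, by -1.72 ± 0.12 (SE) at 24 h and by a further -0.82 ± 0.11 (SE) to 48 h on the log2 scale, with adjusted p of 9.71e-05 and 0.00129 by edgeR. Hsd17b12, a reductase of fatty acid elongation, was lower at 24 h (-1.55 ± 0.13 SE, adjusted p = 0.000185), and Elovl6, an elongase of palmitate, was at 14.2 ± 0.988 CPM (SD, n = 3) at 48 h against 53.0 ± 18.7 CPM at 0 h. Slc25a1, the mitochondrial citrate carrier, fell between 24 h and 48 h (-0.77 ± 0.07 SE, adjusted p = 0.000187). Me1, malic enzyme, which yields NADPH for lipid synthesis, was higher at 24 h (0.82 ± 0.18 SE, adjusted p = 0.0129), as was Hacd1, a dehydratase of fatty acid elongation (0.65 ± 0.18 SE, adjusted p = 0.0371). The count called higher at 24 h was 0 without 0 h replicate 2, 24 h replicate 2 or 24 h replicate 3 and 1 without 24 h replicate 1 or with no expression filter.

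The isoprenoid branch uses farnesyl diphosphate for dolichol, ubiquinone and protein prenylation. Of its 15 genes, none was called lower and 3 were called higher by edgeR at each later time, with list medians of 0.03 and 0.17. At 24 h the 3 calls fell to 0 without 0 h replicate 2 or 24 h replicate 2, and to 1 without 24 h replicate 1 or 3 or with no expression filter. Rabggta, a subunit of the transferase that prenylates Rab proteins, was at 70.0 ± 2.93 CPM (SD, n = 3) at 24 h against 47.4 ± 3.74 at 0 h. Dhdds, a dolichol synthase subunit, was at 88.3 ± 2.45 CPM at 24 h against 66.7 ± 7.60, and Fnta, a subunit of farnesyl transferase, at 52.6 ± 0.422 CPM at 48 h against 35.3 ± 2.87. Between 24 h and 48 h, Icmt, a methyltransferase of prenylated proteins, was called lower (-0.25) and Pdss2, of ubiquinone synthesis, higher (0.44). These were the only calls among the 15 genes, while 12.7% of all genes tested were called lower and 8.61% higher. Both calls were lost without 24 h replicate 1 or 3 or 48 h replicate 1 or 3, and that of Icmt also without 24 h replicate 2.

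Of 17 further genes of SREBP processing and sterol sensing, 4 were higher and 1 lower after 24 h by the test, against 2 and 3 after 48 h. The 4 calls at 24 h fell to 0 without 0 h replicate 2 or any single 24 h replicate. At 48 h the count called higher was 1 without 0 h replicate 2 or any single 48 h replicate, 4 without 0 h replicate 1 and 5 with offsets for GC content and length. Lpin1, a phosphatidate phosphatase that also restrains SREBP, stood at 165 ± 6.33 CPM before co-culture, 103 ± 6.27 after 24 h and 81.2 ± 8.94 after 48 h (SD, n = 3), and was called lower at each step. Rnf139, a ubiquitin ligase of the endoplasmic reticulum, was called higher at 48 h (log2 fold change 0.56). Sar1b, of the vesicle coat that carries SCAP, was called lower at 48 h (-0.74). Between 24 h and 48 h, Mbtps2, the protease that makes the final cut in SREBPs, and Paqr3, a Golgi anchor of SCAP, were called higher (0.50 and 0.47). Lpin1 and Erlin2 were called lower (-0.34 and -0.26). Erlin2 had been called higher at 24 h against 0 h (0.44) and was not called at 48 h against 0 h (0.18). At 48 h against 24 h, 3 of the 17 genes were called higher and 2 lower, while 8.61% of all genes tested were called higher and 12.7% lower. These counts for the list fell to 1 and 0 without 24 h replicate 1 or 48 h replicate 1 or 3. They were 1 and 1 without 24 h replicate 2 or 3, and 0 and 0 with all 9 libraries in 1 fit.

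In the list of lipoprotein uptake and sterol transport, 6 of 14 genes were lower and 1 higher after 24 h by edgeR, and 7 were lower and none higher after 48 h. At 48 h the count called higher was 3 with DESeq2 and 4 without 0 h replicate 3. Lrp1, a large endocytic receptor of the lipoprotein receptor family, was at 345, 390 and 405 CPM at 0 h and 199, 195 and 153 CPM at 24 h, which do not overlap (log2 fold change -1.06 ± 0.13 SE, adjusted p = 0.00123 by edgeR). Gramd1a, which moves sterol from the plasma membrane, was lower at 24 h (-1.09 ± 0.11 SE, adjusted p = 0.000429). At 48 h the largest falls in the list were in the receptors Vldlr and Lrp8, whose log2 fold changes were -1.78 ± 0.18 and -1.49 ± 0.14 (SE) and adjusted p of 0.000439 and 0.000278 by edgeR. Vldlr fell mainly after 24 h (-1.24 at 48 h against 24 h), and Lipa, the lysosomal lipase of lipoprotein esters, fell before and after it (-0.69 and -0.71). Gramd1c was called higher at 48 h against 24 h (0.44), a call lost without 24 h replicate 1 or 2 or 48 h replicate 1 or 3. Stard5, a carrier related to Stard4, was called higher at 24 h (0.74 ± 0.14 SE, adjusted p = 0.00802). It was then called lower at 48 h against 24 h (-0.29) and was not called at 48 h against 0 h (0.44).

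Among genes of the sterol-activated receptors LXR, of efflux and of oxysterols, 5 of 9 tested were called higher and none lower by edgeR at 24 h, and at 48 h the test called 5 of 10 higher and 1 lower. The medians were 0.60 and 0.25. The 5 called higher at 24 h fell to 2 without 0 h replicate 2 or 24 h replicate 3 and to 1 without 24 h replicate 1 or 2. At 48 h they fell to 3 without 0 h replicate 2 or any single 48 h replicate, and the 1 called lower was lost in the same cases. Cyp7b1, an oxysterol hydroxylase, was at 0.657 ± 0.194 CPM at 0 h and 2.66 ± 0.766 CPM at 24 h (SD, n = 3), and Smpdl3a, a phosphodiesterase induced by LXR, at 0.995 ± 0.269 and 2.07 ± 0.119 CPM. Both are low, with 9 to 25 counts per library at 0 h. Ch25h, which makes 25-hydroxycholesterol, had 1 or 2 counts in each 0 h library and 14 to 23 at 48 h, so no fold is given. Abcg1, a sterol exporter, was called lower at 48 h against 0 h (-0.52) and against 24 h (-0.47), and Cyp46a1, a cholesterol hydroxylase, against 24 h (-1.01). Cyp46a1 had been called higher at 24 h against 0 h (0.60) and was not called at 48 h against 0 h (-0.42). Cyp7b1, Smpdl3a and Ch25h rose in the libraries in which the summed stromal markers rose, and the part of those cells was not tested.

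**Figure D4:**
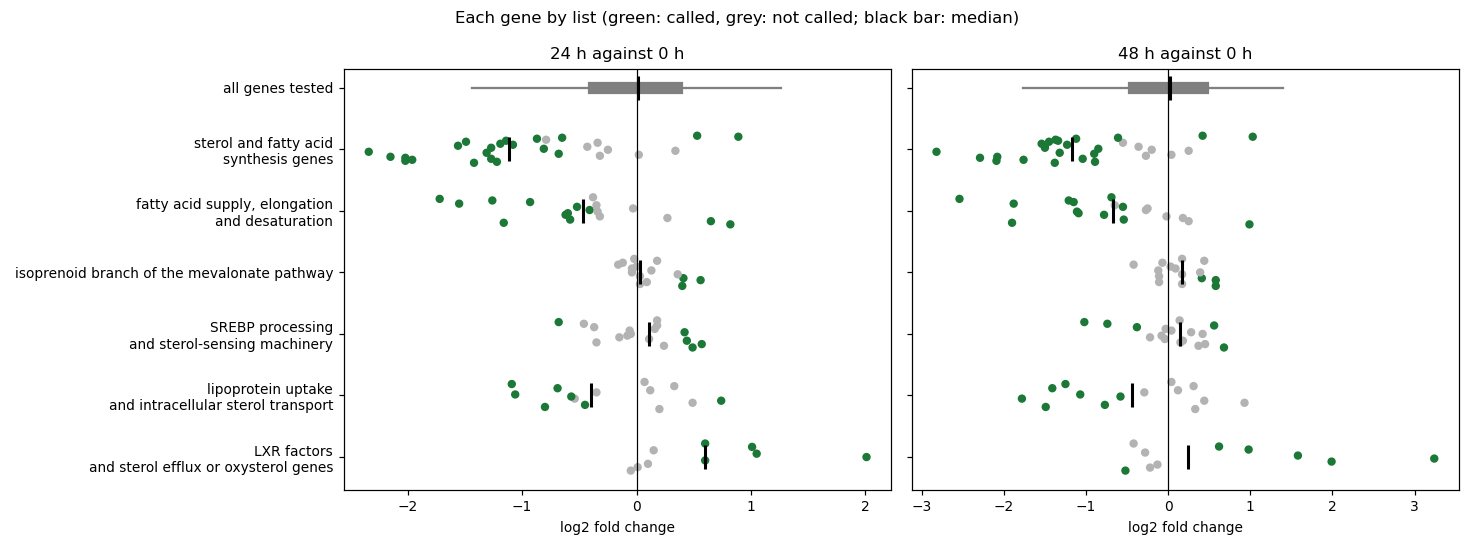
Log2 fold change (horizontal axis) of each gene tested, by list, at 24 h and 48 h against 0 h, with the median of each list (black bar). The top bar gives the 5th, 25th, 75th and 95th percentiles and the median of all genes tested. The synthesis genes have medians of -1.11 and -1.18, the isoprenoid branch 0.03 and 0.17, and the rightmost dot at 48 h is Ch25h, with 1 or 2 counts at 0 h.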

How the data were processed

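The authors sequenced poly-A RNA of 9 libraries and deposited raw counts of reads per gene, not normalized. The submitters' processing notes name fastp, HISAT2, featureCounts and GRCm38, and the strand and repeated-hit settings are not given in the sources used here. GENCODE M21 held 45229 of the 46078 identifiers. Genes were filtered with filterByExpr, scaled with TMM and tested over the 6 libraries of each comparison by quasi-likelihood in edgeR 4.0.16 (R 4.3.3, two-sided), with Benjamini-Hochberg adjustment over all genes tested and a threshold of 0.05. Intervals are 95% intervals of the same fit. FPKM used the union of exons. Shared sequence came from BLAST 2.17.0 hits at 97% identity over 75-base windows. Counts of the replicates differed by more than sampling noise, and each library was taken as 1 replicate because it is labelled as a biological replicate. The fit was tested on simulated data. The genes and lists were chosen with earlier results of these data known. Named are the 28 genes, up to 2 called genes of each further list per direction and comparison with the largest change, and genes sharing sequence with the 28. 2 genes that this rule names are not reported here. Alternatives included DESeq2 1.42.0, other scalings and filters, offsets for GC content and length, 1 fit of all libraries, a replicate block and leaving out each library.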

Additional observations from a re-analysis of the deposited data

How the results depend on the processing

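The counts of genes called lower against 0 h kept within 1.5 times of the values reported under every alternative, at 15 to 20 of the 28 genes at 24 h and 18 to 20 at 48 h when 1 library was left out. Those called higher were Scap and Insig2, and with all libraries kept 5 settings added Acaca at 24 h and 2 at 48 h. Acaca was also called with 1 library left out, in 2 cases at 24 h and 1 at 48 h. The counts were 1 at 24 h and 1 at 48 h with no expression filter or with the replicate block, and 1 to 3 and 1 to 2 with 1 library left out. At 48 h against 24 h, the count called higher was 1 with library size alone, 1 with no expression filter, 1 with the replicate block, 4 with GC and length offsets and 0 with all 9 libraries in 1 fit, and the count called lower was 2 with DESeq2, 1 with the replicate block and 1 with all 9 libraries, and 1 to 2 higher and 0 to 3 lower with 1 library left out. The cause was not tested. The sample titles number the replicates without stating that equal numbers pair libraries. Same-numbered libraries deviated from their group means with correlations of -0.28 to 0.195, and differently numbered ones with -0.392 to 0.38. With 3 libraries per group these correlations cannot settle whether the libraries are paired. With library size as the only scaling, the median over all genes at 24 h went from 0.01 to 0.12 and the share of calls that were higher from 44.5% to 57.1% (41.2% to 52.8% at 48 h), with the median of the 28 genes at -1.06 at 48 h. Genes called among all tested were 3732 at 48 h against 24 h and 1043 with all 9 libraries in 1 fit. Of 1176 fold changes recomputed for the 28 genes, 24 changed sign, none of them called. With 1 library left out, Fasn ran from -0.07 to 0.13 at 24 h and from -0.04 to 0.16 at 48 h, and Hsd17b7 from -0.28 to 0.01 at 48 h. At 48 h against 24 h, GC and length offsets gave -0.08 for Hmgcs1, 0.18 for Mvd, 0.06 for Fdft1, -0.02 for Msmo1, -0.07 for Hsd17b7 and -0.12 for Sc5d, and Fdft1 was at 0.01 with DESeq2 or its size factors, 0.02 with at least 10 counts in every library and 0.00 with all 9 libraries. With 1 library left out there, Mvd ran from -0.11 to 0.03, Fdft1 from -0.06 to 0.07, Msmo1 from -0.02 to 0.15, Ebp from -0.06 to 0.22, Sc5d from -0.01 to 0.12 and Fasn from -0.03 to 0.10. The counts of the 5 further lists, mostly small, moved by over 1.5 times in 110 of 420 alternatives, and with the replicate block those called higher at 24 h went from 4 to 0 in SREBP processing, 3 to 1 in the isoprenoid branch, 5 to 2 in the LXR list and 2 to 0 in fatty acid supply. 67 of 84 levels per length moved by over 1 SD with the longest transcript as length.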
